A study of Homo sapiens with 12 samples.

Results

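The RNA enriched by IP of FLAG-tagged dSpCas9 from human cells is described here from 1 list of 6554 eCLIP peaks, taken whole, among 18128 peaks in 4 lists of the series. A peak is a stretch of RNA where immunoprecipitation (IP) libraries held more reads than a control. The control for this list was the size-matched input, which is RNA from the same part of the membrane without IP. dSpCas9 is a Streptococcus pyogenes Cas9 that binds but no longer cuts, and it was expressed here without a guide RNA, without a nuclear localisation signal and with a 3xFLAG tag, from a plasmid transfected into Lenti-X 293T cells. These are HEK 293T cells, a transformed human embryonic kidney line with the large T antigen of SV40. Both the IP and the input libraries came from cells with the tagged protein, in 2 biological replicates each, cross-linked with 400 mJ/cm2 of UV light in each of 2 exposures. The membrane was cut from 115 kDa upward. V5-tagged dSpCas9 and empty vector controls made up the rest of the 12 libraries of the series, and the empty vector libraries entered other lists only. The list gives 1 value per peak over both replicates, no read count and no expression level, so depth is unknown, no spread between replicates can be given, and the identity of the cell line could not be checked by its markers.

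In eCLIP, UV light links a protein to RNA that it touches in the cell, an antibody recovers the protein, and the linked RNA is sequenced. Cas9 is guided in bacteria by a crRNA paired to a tracrRNA, or in engineered form by a single guide RNA that folds into stems and loops, and human cells make no such RNA. mRNAs and tRNAs are nevertheless folded RNAs, with short stems, hairpins and loops. An mRNA is read by ribosomes in its coding sequence (CDS), which lies between a 5′ and a 3′ untranslated region (UTR), and tRNAs are short folded RNAs that carry amino acids to the ribosome and end in CCA once they are mature.

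The sequences below are those at the most enriched peaks, shown because the results turn on them. They were read 5′ to 3′ on the strand of the peak from hg38, from at most 30 bases around the middle of the peak, for the 3 genes with the highest peak of at least 20 nt in each mRNA region. Capitals mark GT, which is GU in the RNA and the first element of the structural motif described further on. The first 3 lines come from peaks assigned to 5′ UTRs (CDIP1 chr16:4538741-4538770, minus strand; C12orf75 chr12:105330709-105330738, plus strand; QPRT chr16:29679182-29679206, plus strand, with 16 bases of 5′ UTR and 9 of CDS). The next 3 come from peaks assigned to the CDS (H2AC11 chr6:27133387-27133411, plus strand; POLG chr15:89316737-89316765, minus strand, with 15 bases of CDS and 14 of 3′ UTR; SIK2 chr11:111701471-111701500, plus strand). The last 3 lie in 3′ UTRs (H2AC11 chr6:27133501-27133530, EVI5L chr19:7863736-7863765 and CDKN1A chr6:36686779-36686808, all on the plus strand).
CDIP1: aGTgcgactgccagctgccgaggcGTtcgg
C12orf75: cgcagcccgctgcgccccgggccgcGTctc
QPRT: acagctgcaaGTcaccatggacgct
H2AC11: ggcgGTGTcctgcccaacattcagg
POLG: cagcctggaccatagcactgcctggaggc
SIK2: atGTccttGTctGTggagctctgccctttg
H2AC11: gaGTccaaaccaacggctcttttcagggcc
EVI5L: gcagccgcggggggcgcccgggcaGTccgc
CDKN1A: tctagctGTggggGTgaggGTcccatGTgg
GT occurred in 8 of these 9 windows, and the EVI5L window was 90% G and C. GU is common, however, at 49.8 per kb outside the peaks of the mRNAs in the list, weighted to the regions of the peaks. How many windows of this length outside peaks hold a GT was not counted, so the 8 windows show no trait of peaks.

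Other highly enriched peaks lay on tRNA genes. The 3 windows below are from the tRNA genes with the highest peaks, on hg38 (TRU-TCA1-1 chr19:45478628-45478657, minus strand; TRR-TCG1-1 chr15:89335109-89335138, plus strand; TRK-CTT1-2 chr15:78860578-78860607, plus strand), again with GT in capitals.
TRU-TCA1-1: aggcttcaaacctGTagctGTctagcgaca
TRR-TCG1-1: gatcagaagattgcagGTtcgaGTcctgcc
TRK-CTT1-2: cgGTagagcatgggactcttaatcccaggg
A further set of windows lay in introns, on no tRNA gene. Here capitals mark bases identical to a tRNA gene of RefSeq, with the CCA of mature tRNAs added at its end, and each line is shown with its coordinates (ENSG00000254404 chr11:62252198-62252222, minus strand, matching TRK-TTT2-1; ENSG00000269237 chr19:21440634-21440663, plus strand, matching TRR-ACG1-1; ENSG00000275016 chr15:95784681-95784710, plus strand, matching TRK-CTT1-1; SYCP2L chr6:10887603-10887626, plus strand, matching TRN-GTT2-1; ENSG00000269535 chr19:52331908-52331931, minus strand, matching TRK-TTT2-1).
ENSG00000254404: ctcgAAGTCCCTGTTCAGGCGCCAc
ENSG00000269237: gacagtctctgCTCCTGGCTGGCTCGCCAa
ENSG00000275016: AATCCCAGGGTCGTGGGTTCaagccccacg
SYCP2L: AGCCCACCCAGGGACGCCAaaaac
ENSG00000269535: attctGTCCCTGTTCAGGCGCCAc
The run in ENSG00000275016 lay inside a tRNA gene's sequence, and the other 4 ended in CCA.

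The enrichment of a peak is the log2 of the ratio of IP to input reads, as the authors deposited it, and the list began at 3.00, an 8-fold ratio. The median was 3.63 (95% interval 3.61 to 3.64, from the order of the values), a 12.3-fold ratio, and 25% and 75% of the peaks lay at or below 3.28 and 4.11. The most enriched peak reached 9.52. At least 4 was reached by 1910 peaks (29.1%), at least 5 by 380 (5.8%) and at least 6 by 86. The deposited −log10 p has a ceiling of 400, which 345 peaks reached and among which it gives no order. Peaks were short, with a median of 71 nt and a range of 2 to 332 nt, and 885 (13.5%) were under 25 nt. Many touched one another: merging those that touch left 5472 intervals, of which 794 joined at least 2 peaks and at most 17. The peaks lay on both strands (3398 plus, 3156 minus) and on 24 chromosomes, the mitochondrial one with 2 peaks included.

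Nearly all peaks lay on exons of protein-coding genes. By GENCODE annotation on the same strand these held 6358 peaks (97.0%, 95% Wilson interval 96.6 to 97.4), with a median log2 of 3.61. Such intervals cover counting error only, and peaks of 1 gene share their mRNA. Exons of noncoding genes held 83 peaks (1.27%) with a median log2 of 4.00, and introns of protein-coding genes held another 83 with a median of 4.78. Introns of noncoding genes held 25 peaks (0.381%) with a median of 6.47, and 5 peaks lay in no gene of their strand. The small classes held many of the highest values. Of intronic peaks in coding genes 37 (44.6%) reached a log2 of 5, and of those in noncoding genes 19 of 25 (76%) did, beside 5.8% of all peaks and 4.81% of those on coding exons. Some of these peaks adjoined one another and shared 1 value, and the medians and shares count each singly. When peaks within 10 nt of each other were joined, 63 intronic loci remained, and 23 of them reached a log2 of 5.

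**Figure D1:**
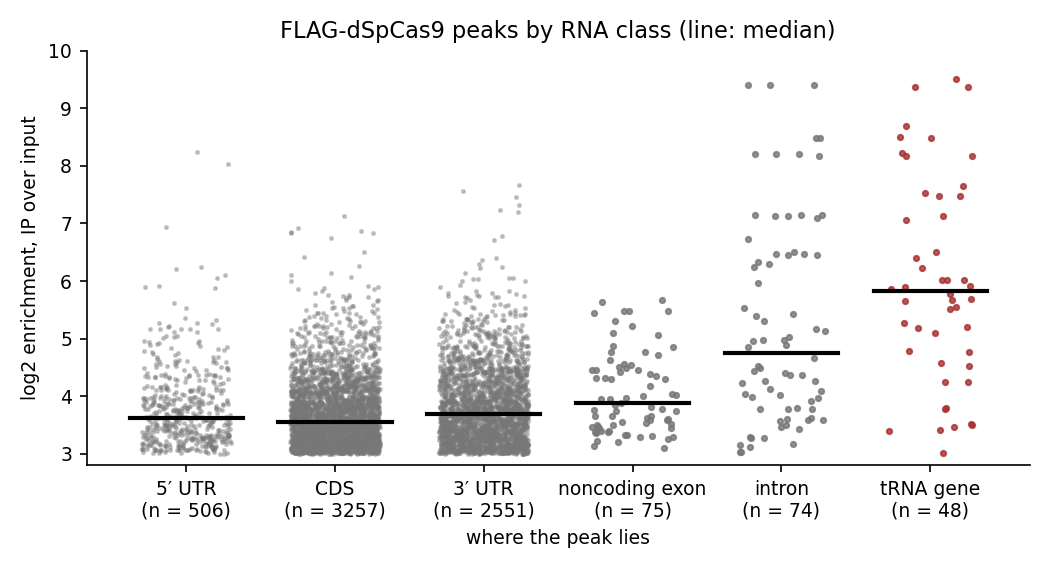
Log2 enrichment of every FLAG-dSpCas9 peak (points, spread sideways only for legibility) by where the peak lies, with the median as a line; the 48 peaks on tRNA genes are in red and left out of the other columns. The 3 mRNA regions have medians of 3.63, 3.55 and 3.68, and peaks on tRNA genes have a median of 5.82.

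tRNA genes accounted for part of the high intronic values. RefSeq lists 443 nuclear tRNA genes, and 18 of them overlapped 48 peaks (0.732% of all), with a median log2 of 5.82. A log2 of at least 5 was reached by 34 of the 48 (70.8%, beside 5.8% of all peaks). By gene, the highest peak reached 5 in 11 of the 18. The highest was the selenocysteine tRNA gene TRU-TCA1-1, whose tRNA inserts selenocysteine at certain UGA codons. It lies at chr19:45478601-45478687 in an intron of ERCC1, and its 8 peaks ran from 8.17 to 9.52. TRR-TCG1-1, an arginine tRNA gene in an exon of the noncoding gene POLG-DT, reached 8.69. The lysine tRNA gene TRK-CTT1-2, in an intron of MORF4L1, reached 7.47 in a peak of 2 nt (chr15:78860561-78860562), outside the window shown above. The median of its 6 peaks was 5.65. The cysteine tRNA gene TRC-GCA3-1, in an intron of ZNF767P, reached 7.13. By amino acid, the 18 genes comprised 7 of 26 for arginine, 4 of 26 for serine and 3 of 27 for lysine, with 1 each for selenocysteine, cysteine, alanine and tryptophan. The lowest was TRK-CTT4-1 at 3.01.

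Peaks on tRNA genes differed between the other lists. V5 peaks over input overlapped 42 of the 48 (87.5%), in 15 of the 18 genes, and the highest V5 value on TRU-TCA1-1 was 8.56. In the list over the empty vector IP, which was made with the same FLAG IP libraries, 0 of the 48 overlapped a peak. Its control held RNA recovered by the FLAG antibody from cells without dSpCas9, and how many tRNA reads that control held cannot be read from the list. RefSeq's table used here gives no strand for these genes, so the strand was read from the B box, the internal promoter element of tRNA genes, spelled GTTCNANNC with N for any base and searched on both strands. In 17 of the 18 genes the box lay on the strand of the peaks only, and in 1 the strand was unclear. Of 429 tRNA gene sequences with a symbol of their own, 381 (88.8%) held the box on 1 strand only, and of 5348 peak loci 124 (2.32%) held it on the strand of the peak. Genes for 1 amino acid are often near-identical copies, so the assignment of reads to a single tRNA gene is uncertain.

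**Figure D2:**
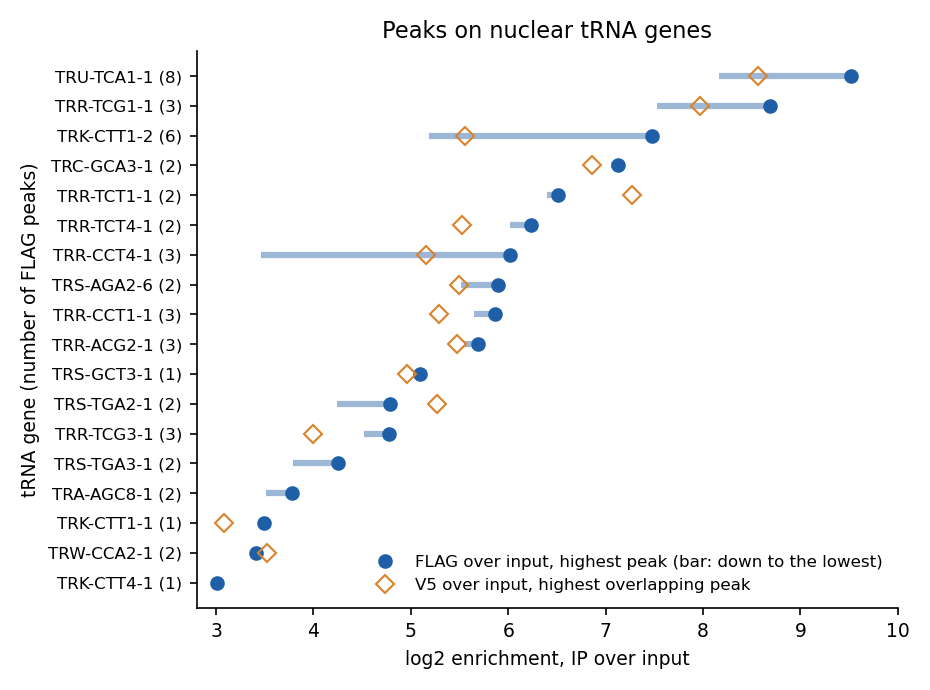
Log2 enrichment over input of the 18 tRNA genes with a FLAG peak, with the highest FLAG peak (filled), the range down to the lowest (bar) and the highest overlapping V5 peak (open), the number of FLAG peaks in brackets. TRU-TCA1-1 leads in both lists, at 9.52 in FLAG and 8.56 in V5.

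Several very high intronic peaks lay on no tRNA gene but shared sequence with one, as the windows above show. This search was made after the values were seen. Peaks within 10 nt of each other were joined into 5348 loci, and 20 nt were added on each side. An exact match of at least 16 nt to a tRNA gene sequence was then sought. Since the strand of the genes was not given, both strands of each sequence were used, with CCA added at the 3′ end of each. Over 20 nt from any tRNA gene, 16 loci had such a match, 12 of them in introns and 4 on coding exons, and 9 of the matches ran to the added CCA. These 9 all lay in introns. FAM193A and STX10, both on coding exons, held the B box on the opposite strand only. Together with the 18 tRNA genes, 34 loci (0.636% of all) were on a tRNA gene or matched 1 of its strands. The share was 7 of the 10 loci with the highest peak, 11 of the 20 highest (55%) and 16 of the 23 intronic loci with a log2 of at least 5 (69.6%). The second highest locus of the list, at 9.40 in an intron of the lncRNA gene ENSG00000254404, matched the lysine tRNA gene TRK-TTT2-1 over 20 nt, CCA included. ENSG00000269237 (8.48), SYCP2L (7.15) and ENSG00000269535 (7.13) also held matches that ran to CCA, and ENSG00000275016 (8.20) matched the lysine tRNA gene TRK-CTT1-1 over 38 nt. A match is a description of letters, and whether reads there came from tRNAs was not tested.

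Other noncoding RNAs were few. Exons of 21 lncRNA genes held 40 peaks, 8 of them on tRNA genes, and the genes included FIRRE, PVT1, SNHG5, SNHG16 and SNHG32. Processed pseudogenes held 20 peaks in 11 genes, with 9 at a log2 of at least 5 and a highest value of 5.63. Of the 11, 7 were named as copies of ribosomal protein genes, such as RPLP0P6, RPL13AP5 and RPS2P5, whose reads cannot be told apart from those of their parent genes with confidence. The group of small RNAs that GENCODE calls misc_RNA held 12 peaks up to 4.76, on RN7SL2, the RNA of the signal recognition particle, VTRNA1-2, a vault RNA, 2 genes of Y RNA and copies of RN7SK. The miRNA gene MIR222 held 2 peaks up to 4.85. The mitochondrial tRNA genes MT-TC and MT-TP held 1 peak each, the higher at 4.38, and 5S rRNA pseudogenes held 4 peaks up to 4.46.

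On mRNAs, peaks were spread over all regions. For 6316 peaks a region of the Ensembl canonical mRNA could be given, in 2530 genes. The CDS held 3257 (51.6%, 95% Wilson interval 50.3 to 52.8), 3′ UTRs held 2553 (40.4%) and 5′ UTRs 506 (8.01%, 7.37 to 8.71). Averaged over these peaks, the mRNA of a peak was by length 49.1% CDS, 45.9% 3′ UTR and 5.03% 5′ UTR. With each gene counted once, the averages were 47.4%, 47.4% and 5.23%. By count of peaks and by either average, 5′ UTRs were above their share of length and 3′ UTRs below. By bases the order differed: of 465849 nt inside peaks, 220735 lay in 3′ UTRs, 203232 in the CDS and 41882 in 5′ UTRs. The standing of 3′ UTRs against their length thus depends on whether peaks or bases are counted. The medians of log2 enrichment were 3.63 in 5′ UTRs, 3.55 in the CDS and 3.68 in 3′ UTRs. Peaks in the CDS were the shortest, with a median of 57 nt against 83 nt in 3′ UTRs. In the V5 list over input the shares were close, at 52.4% CDS, 38.3% 3′ UTR and 9.32% 5′ UTR. The FLAG list over the empty vector IP had 49.0% CDS, 47.4% 3′ UTR and 3.62% 5′ UTR.

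The make-up changed with enrichment. Of mRNA peaks with a log2 from 3 to 3.5, 36.0% lay in 3′ UTRs and 56.1% in the CDS. From 3.5 to 4 the 3′ UTR share was 40.6%, from 4 to 5 it was 46.3%, and at 5 or more it was 49.5% (95% interval 43.9 to 55.1), when the CDS held 40.6%. The 345 peaks at the ceiling of the p-value were made up differently, with 19.2% of those on mRNAs in 3′ UTRs and 70.2% in the CDS.

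Within regions the peaks were unevenly placed. When 3′ UTRs of at least 100 nt were cut into 10 parts of equal length, 15.1% of peak midpoints lay in the first part and 2.59% in the last. The median midpoint was 766 nt past the stop codon. The midpoint of a peak cannot lie at the very end of an mRNA, which lowers the share that the outermost parts can hold. Whether the cells used the canonical mRNA ends was not tested. In the CDS, 14.3% lay in the first part and between 8.85% and 10.2% in each of the later ones. Peaks that reached from the 5′ UTR into the CDS numbered 253 (4.01%), with 176 (2.79%) across the end of the CDS. In the CDS, 1459 of 3188 peaks on spliced mRNAs (45.8%) started or ended within 2 nt of an exon junction, and in 3′ UTRs 12 of 2525 did (0.475%). How many junctions each region holds was not counted, so the difference cannot be read as a trait of the peaks. What part of the short CDS peaks arose where an enriched region was divided at a junction was not tested.

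**Figure D3:**
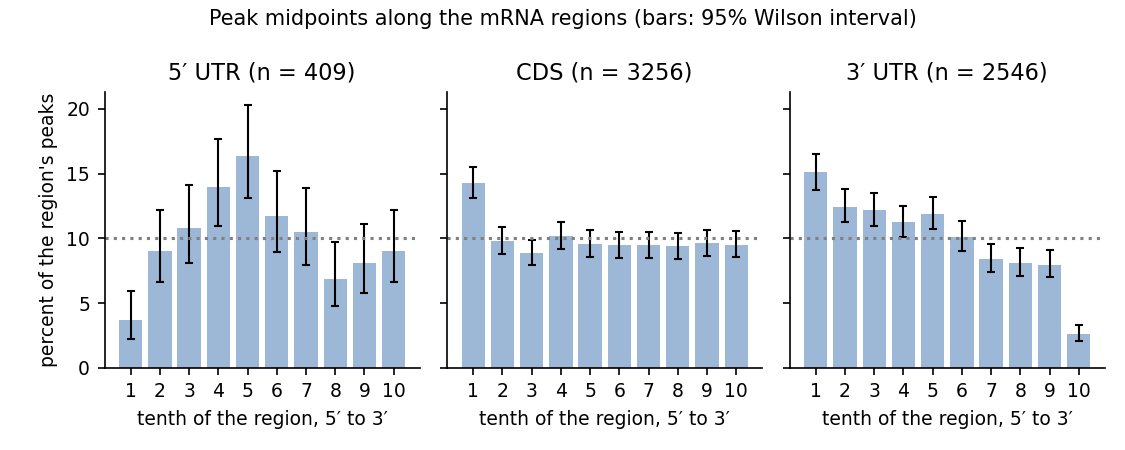
Percent of the midpoints of FLAG-dSpCas9 peaks in successive parts of the 5′ UTR, CDS and 3′ UTR (10 parts of equal length each), for regions of at least 100 nt, with 95% Wilson intervals and a dotted line at 10%. The first part of the CDS holds 14.3% and the last part of the 3′ UTR 2.59%. The dotted line is no expected share, because the length of a peak keeps its midpoint from the very ends of an mRNA.

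The sequence and predicted folding of the peaks set them apart from the rest of the same mRNAs. On the 2530 spliced mRNAs, bases inside peaks were 59.3% G and C, against 50.6% in the rest when weighted to the same regions. The difference was present in each region, at 72.6% against 68.7% in 5′ UTRs, 59.2% against 53.4% in the CDS and 57.0% against 44.5% in 3′ UTRs. A was scarcer inside peaks, at 18.4% against 25.4% in the unweighted rest. Of 770 mRNAs with at least 200 nt of peak, 682 (88.6%) had a higher GC content inside peaks than outside. Predicted pairing, from RNAplfold with a window of 70 nt, averaged 56.2% of bases inside peaks and 50.4% in the weighted rest, and it was higher inside peaks in 736 of the 770 mRNAs (95.6%). Pairing and GC content move together in such predictions, and their parts in this difference were not told apart.

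GU and the motif built on it were denser inside peaks. GU occurred 61.1 times per kb inside peaks and 49.8 times in the weighted rest. The motif, named GU-loop:5nt-stem in the study, is a GU followed by 5 bases that are each paired with a probability over 0.5, with the U paired with a probability under 0.7. It occurred 7.94 times per kb inside peaks (95% interval 7.69 to 8.20, counting error only) and 4.29 times in the weighted rest. Of GU sites inside peaks 13.0% were followed by such a stem, against 8.62% in the weighted rest. The density was 7.38 per kb inside peaks and 4.18 outside in 5′ UTRs, 7.0 and 3.66 in the CDS, and 8.92 and 4.90 in 3′ UTRs. Among the 770 mRNAs, 562 (73.0%) had more motifs per kb inside than outside. The study modelled this motif on the SpCas9 guide RNA and scored it on peaks of these libraries, so its density here is no independent evidence for it.

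The motif was far from general, and it did not follow enrichment. It lay whole inside 2468 of 6316 mRNA peaks (39.1%), in 8.38% of those under 30 nt and in 62.1% of those of at least 100 nt. Peaks with it had a median log2 of 3.60 and those without it 3.61. By enrichment the share was 39.6% from 3 to 3.5 and 32.7% at 5 or more, where peaks were shorter (median 58 nt against 73 nt). Among 1596 hexamers seen at least 100 times inside peaks, the one most over its expectation from the rest of the same regions was GCGUGU, with 146 occurrences in 128 genes against 47.5 expected, a ratio of 3.07. CGUGUG followed with 228 in 198 genes and a ratio of 3.03, and GUGUGC with 391 in 317 genes and a ratio of 2.85. The lowest ratios were those of UUUUCU (0.318), UGUUUU (0.331) and GAAGAA (0.383).

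Peaks were found on 2629 genes. Of 20046 protein-coding genes, 2547 (12.7%) had a peak on an exon. A single peak was all that 1296 genes had (49.3% of the 2629), while 71 genes with at least 10 peaks held 1008 peaks (15.4%). The median share of an mRNA covered by peaks was 3.71%, and 53 mRNAs were covered over more than 25% of their length. By region, 893 mRNAs had peaks in the CDS alone, 868 in the 3′ UTR alone, 361 in both of these and 180 in the 5′ UTR alone. The highest peak of a coding gene had a median log2 of 3.78, with 179 genes (7.03%) at 5 or more and 20 at 6 or more.

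The mRNA with the highest peak was CDIP1, which encodes a p53-dependent proapoptotic protein. Its 7 peaks had log2 values of 8.23, 8.03, 6.21 and 6.06 in the 5′ UTR and 4.62 in each of the 3 peaks in the CDS. The highest covered nucleotides 1 to 41 of the canonical mRNA (chr16:4538733-4538779), whose V5 peak had 7.18 and whose FLAG peak over the empty vector IP had 8.01. All 7 CDIP1 peaks overlapped a peak in both of those lists.

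H2AC11, a histone H2A gene with an mRNA of 493 nt, had 26 peaks and the next highest value. They covered 80.9% of the mRNA, the largest share of any mRNA in the list, with log2 values from 5.12 to 7.67. The lowest lay at nucleotides 60 to 62 of the mRNA, and those from nucleotide 407 on were all above 7. Histone genes of one class are near-identical copies, so the assignment of reads to H2AC11 is uncertain, and H2AC7, with 69.2% of its mRNA covered by 2 peaks, reached a log2 of only 3.24.

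ATF3 and CDKN1A had peaks over long stretches of their 3′ UTRs. ATF3, a transcription factor induced by stress, had 15 peaks, 11 of them in the 3′ UTR, covering 40.5% of the mRNA. The highest, at 6.37, lay at nucleotides 916 to 963, and its V5 peak had 6.03. The lowest, at 3.16, lay in the 5′ UTR. CDKN1A, the cyclin-dependent kinase inhibitor p21 and a target of p53, had 21 peaks with 12 in the 3′ UTR, 5 in the 5′ UTR and 4 in the CDS. Its highest, at 6.40, covered nucleotides 1527 to 1631, and its V5 peak had 5.52. V5 peaks overlapped 16 of the 21 CDKN1A peaks and all 15 ATF3 peaks. GAPDH, a glycolytic enzyme and a control in the study, had 1 peak of 3.72 at its 5′ end that no V5 peak overlapped, and ACTB, another control, had 0.

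**Figure D4:**
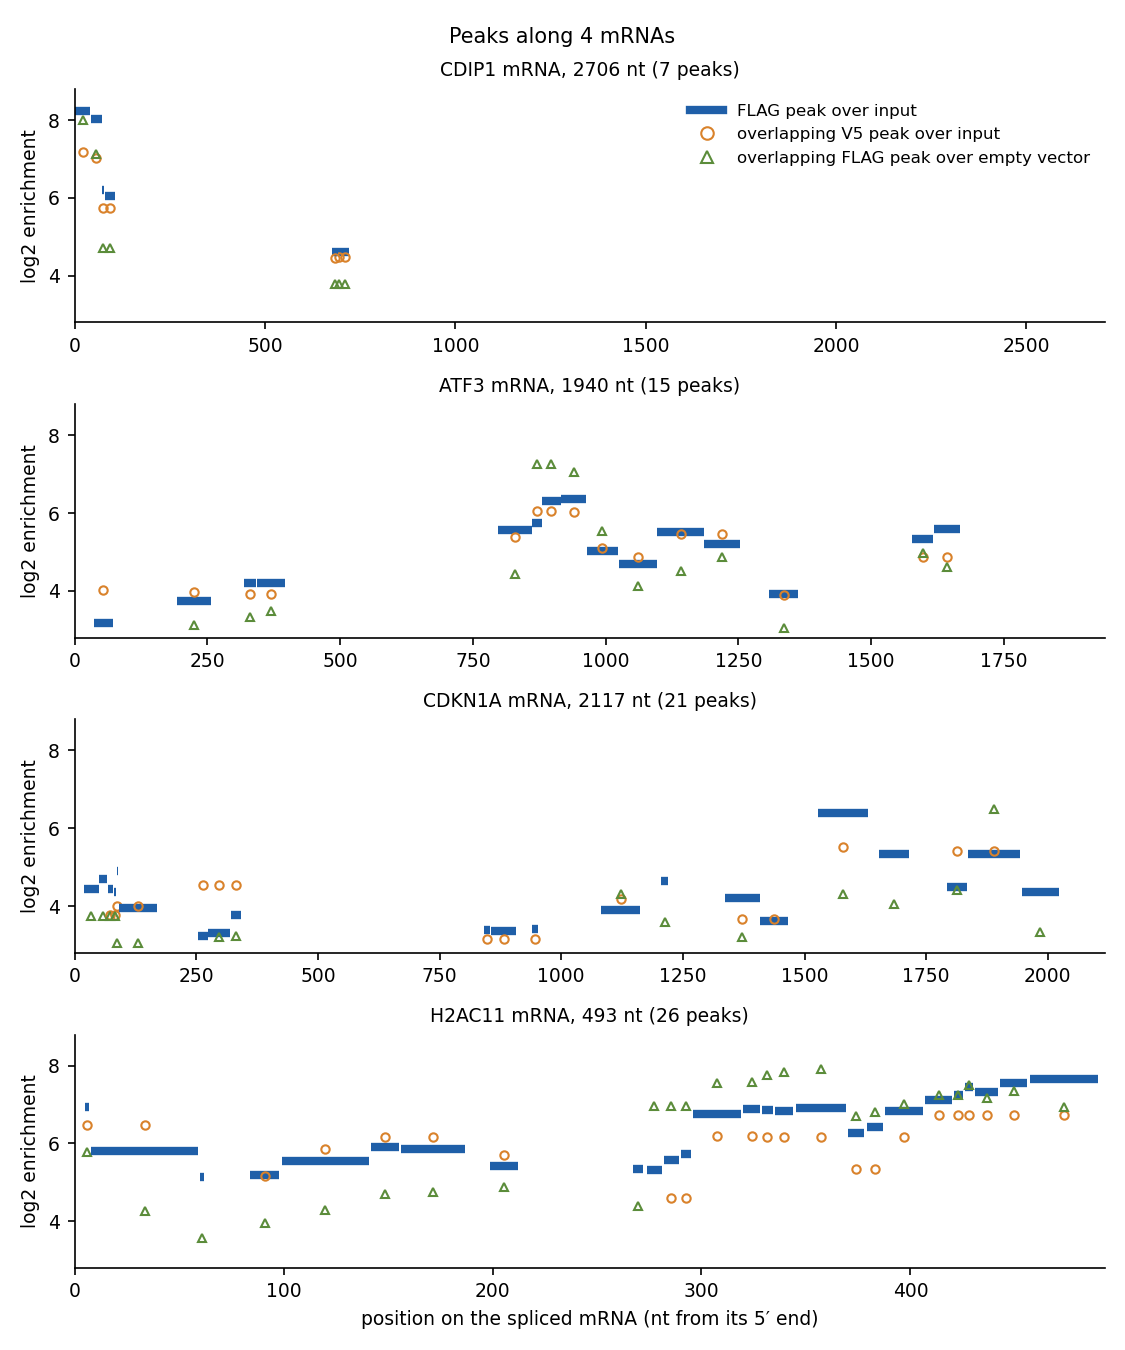
FLAG-dSpCas9 peaks over input along 4 spliced mRNAs (bars, log2 enrichment against nucleotides from the 5′ end), with the highest overlapping V5 peak over input (circles) and FLAG peak over the empty vector IP (triangles) at the middle of each. CDIP1 is highest at its 5′ end, with 8.23, and H2AC11 towards its 3′ end, with 7.67.

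Other mRNAs with a peak of log2 6 or more differed in where that peak lay. EVI5L, a regulator of Rab GTPases, had 3 adjoining peaks of 6.71, 7.20 and 6.78 in its 3′ UTR, where 1 V5 peak of 3.96 overlapped all 3. POLG, the mitochondrial DNA polymerase, reached 6.51 in a peak across the end of its CDS and 6.06 in a neighbouring peak of the 3′ UTR. C12orf75 reached 6.24 in the 5′ UTR, and SIK2, a salt-inducible kinase, 6.15 in the CDS. UNC119B had all 15 of its peaks in the 3′ UTR, up to 6.23. MED27, a subunit of the Mediator complex, had 1 peak of 6.24 in its 3′ UTR and no peak in the V5 list, the highest of the 781 genes that had a FLAG peak and no V5 peak.

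Among the genes with the most peaks, the highest value ranged widely, from H2AC11 with 26 peaks up to 7.67 and WDR1, an actin-disassembly factor, with 26 up to 6.05, to EEF2. EEF2, which moves the ribosome along the mRNA, had the most, 33 peaks, all in the CDS, with a maximum of only 3.77, and 31 overlapped a V5 peak while 0 overlapped a peak over the empty vector IP. RPL8 had 32 peaks, with 27 in the CDS and a maximum of 4.93. USP22, a deubiquitinase of the SAGA complex, had 29, with 13 in the CDS and 14 in the 3′ UTR, up to 5.53. RPLP0, a protein of the ribosomal stalk, had 28 peaks up to 5.09, covering 52.7% of the mRNA. COX7A2, a subunit of cytochrome c oxidase, was covered over 51.1% of its length by 3 peaks.

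Gene groups were described by their counts beside those of all protein-coding genes, of which 12.7% had a peak on an exon and 7.03% of these reached a log2 of 5. The groups were not corrected for expression, which the list does not give, so the level of their mRNAs was not told apart from binding. Nor were they corrected for mRNA length. The median mRNA was 3951 nt for coding genes with an exon peak and 2899 nt for all coding genes. Of 28 p53 targets, 19 had a peak, 118 peaks in all with a median log2 of 3.94, and 4 reached 5: CDIP1, CDKN1A, AEN, a nuclease (5.64), and MDM2, the ubiquitin ligase of p53 (5.01). Of these 118, 60.2% overlapped a FLAG peak over empty vector, against 28.0% of all peaks on coding exons. Much of this came from few genes: all 7 peaks of CDIP1, 16 of 21 of CDKN1A and 18 of 24 of AEN overlapped one. The share without these genes was not computed. The p53 list includes genes that the study itself followed. Of 17 genes of the integrated stress response, 7 had a peak, with a median log2 of 4.15 over 36 peaks. Of these peaks 63.9% lay in 3′ UTRs, beside 40.4% of all mRNA peaks. The CDS made up only 37.4% of the length of these mRNAs, and the part of the length in 3′ UTRs is not given here. ATF3 (6.37) held 15 of the 36 peaks and 11 of the 23 in 3′ UTRs, and the other 6 genes had 12 of 21 in 3′ UTRs (57.1%) and a median of 3.84. TRIB3, a pseudokinase (5.72), and SESN2, a sestrin (4.78), followed.

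Genes of the translation machinery differed in the regions that held their peaks. Of 90 cytoplasmic ribosomal protein genes, 38 had a peak, and 87.1% of their peaks with a region lay in the CDS, which made up 62.4% of the length of their mRNAs. Their highest peaks were RPS20 (5.12), RPLP0 (5.09) and RPL37A (5.06), and V5 peaks overlapped 91.6% of their 237 peaks. Of 72 translation factors 17 had a peak, led by EEF1G (5.45), EIF3A (5.09) and EIF4H (4.95), with 78.9% of peaks in the CDS, which made up 67.6% of the length. EEF2 and EEF1G held 54 of these 75 CDS peaks, and in the other 15 genes 21 of 40 peaks (52.5%) lay in the CDS. Of 37 aminoacyl-tRNA synthetases, which load tRNAs with amino acids, 10 had a peak, led by MARS1 (5.88), TARS2 (5.05) and AARS1 (4.62), with 79.5% of peaks in the CDS against 82.8% of the length. Mitochondrial ribosomal proteins had 14 of 78 genes with a peak, and there 51.7% of peaks lay in 3′ UTRs and 44.8% in the CDS, against 49.1% of the length, with MRPL10 (4.87), MRPS27 (4.85) and MRPL49 (4.76) the highest.

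Among the other groups, 11 of 28 lysine methyltransferases and demethylases had a peak, led by KDM5C (5.22), KDM5A (4.75) and KDM4A (4.62), and so did 14 of 50 proteasome genes, led by PSMB5 (4.74), PSMA2 (4.46) and PSMA7 (4.29). Histones had 23 of 88, with MACROH2A2 (5.77) and H2AC4 (4.31) after H2AC11. Heat shock proteins and chaperones had 22 of 88, led by DNAJB2 (4.80), DNAJC5 (4.78) and DNAJB1 (4.64). RNA helicases had 13 of 54, led by DHX34 (5.10), DHX33 (4.93) and DHX37 (4.87). Ubiquitin conjugating and deubiquitinating enzymes had 26 of 114, led by USP48 (5.90), USP22 (5.53) and USP31 (4.73). Solute carriers had 54 of 373 (14.5%), led by SLC38A1 (5.73), SLC39A7 (5.17) and SLC25A11 (5.10). That share was near the 12.7% of all coding genes. So was that of splicing factors and hnRNPs (10 of 75, led by SF3B3 at 5.48, SNRPD1 at 4.61 and SF3A1 at 4.47). Near it too was the share of the respiratory chain and ATP synthase (12 of 88, with NDUFB7 at 5.61 and ATP5F1A at 4.74). The lowest shares were those of zinc finger genes of the ZNF series and of tubulins and kinesins. The first had 43 of 509 (8.45%), led by ZNF672 (6.10), ZNF496 (5.74) and ZNF445 (4.93). Tubulins and kinesins had 5 of 74 (6.76%), led by KIF1A (5.24), KIF1C (3.72) and TUBB6 (3.49).

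Overlap with the V5 list was partial and grew with enrichment. V5 and FLAG lists over input share no library. Counting any shared base on the same strand, 3658 FLAG peaks (55.8%, 95% Wilson interval 54.6 to 57.0) overlapped a V5 peak, and 3565 of 6605 V5 peaks (54.0%) overlapped a FLAG peak. The share of FLAG peaks was 44.8% from a log2 of 3 to 3.5, 54.9% from 3.5 to 4, 68.9% from 4 to 5 and 86.8% at 5 or more. By region it was 65.6% in 5′ UTRs, 52.5% in the CDS and 57.1% in 3′ UTRs. At the level of genes, 1848 had a peak in both lists, 70.3% of the FLAG genes and 68.6% of the 2692 V5 genes. Across these genes, which are not independent replicates, the highest log2 values of FLAG and V5 had a Pearson r of 0.585 and a Spearman rho of 0.475, and the FLAG value was the higher in 884 (47.8%).

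Fewer peaks recurred when the same IP libraries were set against the empty vector IP. Of the 6554 peaks over input, 1827 (27.9%) overlapped 1 of the 1964 FLAG peaks over empty vector, and of those 1964, 1777 (90.5%) overlapped a peak over input. Since both lists used the same IP libraries, this overlap is no replication. The share was 10.8% from a log2 of 3 to 3.5 and 70.5% at 5 or more, 14.8% in 5′ UTRs, 26.5% in the CDS and 32.5% in 3′ UTRs. Peaks that overlapped had a median log2 over input of 4.14, and the others 3.48. Both a V5 peak and a peak over empty vector overlapped 1360 peaks (20.8%), and neither overlapped 2429 (37.1%), whose median log2 was 3.43. The difference between the controls cannot be told apart further, because the lists give no reads of the input or the empty vector libraries.

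**Figure D5:**
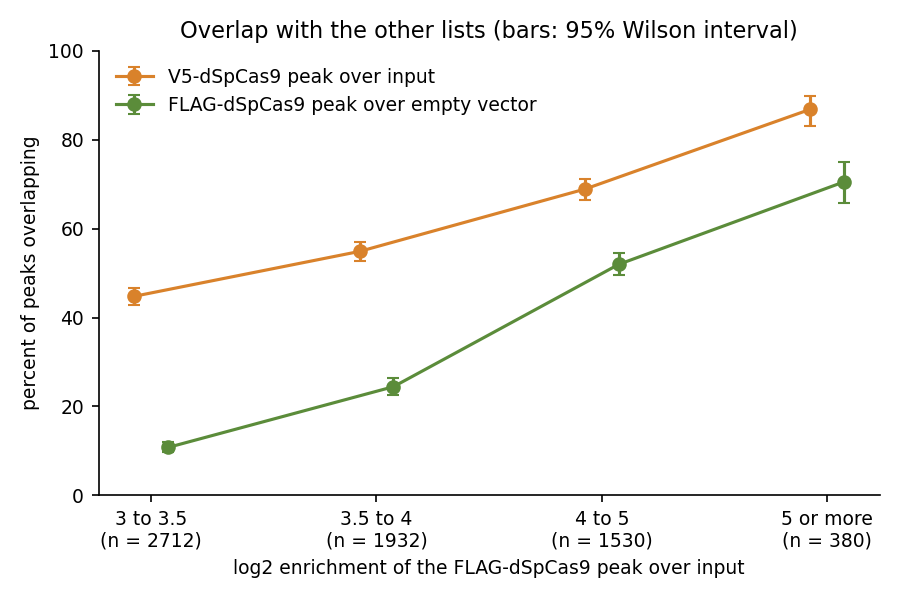
Percent of FLAG-dSpCas9 peaks over input that overlap a V5-dSpCas9 peak over input or a FLAG-dSpCas9 peak over the empty vector IP, by log2 enrichment, with 95% Wilson intervals. From the lowest to the highest class the shares go from 44.8% to 86.8% and from 10.8% to 70.5%.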

How the data were processed

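eCLIP libraries were made from transfected HEK 293T cells, with FLAG IP and size-matched input in 2 biological replicates each. Reads were processed by the authors with an eCLIP pipeline on hg38. The submitters' processing notes name cutadapt 1.14, UMI-tools 1.0.0, STAR 2.4.0i and SAMtools 1.6. The authors merged replicates by the Irreproducible Discovery Rate, which ranks peaks by their reproducibility, and filtered on enrichment and p-value. For each peak the authors deposited a log2 ratio of IP over control reads, as the geometric mean over the replicates. The −log10 p-value of the comparison was deposited by the authors beside it, with a ceiling of 400. The peak caller's version and the scaling of reads between libraries are not given in the sources used here. Depth is unknown, and no replicate value or test was available.

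Peaks were assigned on the same strand to GENCODE version 44, in the order coding exon, noncoding exon, coding intron, noncoding intron, and to the region of the Ensembl canonical mRNA that held most of their bases. tRNA gene positions and symbols came from RefSeq. Overlaps needed 1 nt on the same strand (bedtools 2.31.1). mRNAs were folded whole with RNAplfold of ViennaRNA 2.7.2 (window and span 70, u = 1). Shares have 95% Wilson intervals (Python 3.11.15, numpy 2.4.6, pandas 2.3.3, scipy 1.17.1). Assignment of regions and the motif search were tested on simulated data.

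Named genes are the 10 with the highest peak, the 5 with the most peaks, the 5 mRNAs most covered, the 3 highest peaks of each region, the top 3 of each gene list and genes that the study followed. Some genes that this rule names are not reported here. Other genes were named after their values were seen. The peaks, lists and rules were chosen with earlier results of these data known.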

Additional observations from a re-analysis of the deposited data

How the results depend on the processing

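Values are given as main value and alternatives. The 3′ UTR share of mRNA peaks (40.4%) was 44.8% with 1 peak per gene, 37.5% with any coding transcript, 46.9% and 49.5% at a log2 of at least 4 and 5, and 19.2% at the ceiling of the p-value. In the same order the CDS share (51.6%) was 44.7%, 56.1%, 45.1%, 40.6% and 70.2%. The 5′ UTR share (8.01%) was 10.4% with 1 peak per gene, 6.42% with any coding transcript, 9.90% at a log2 of at least 5 and 10.6% at the ceiling. Peaks on coding exons (97.0%) were 97.6% after merging, 93.6% at a log2 of 4 and 80.5% at 5. Noncoding genes (1.65% with introns) held 3.40% and 9.74% at these thresholds, and coding introns (1.27%) held 0.969% after merging, 2.83% and 9.74%. Peaks in no gene (0.0763%) were 0% at a log2 of 5, the only one of their alternatives past the counting interval. Genes with a peak (2629) were 1018 at a log2 of 4. The median log2 (3.63) was 3.79 with 1 peak per gene and 3.60 weighted by length. Overlap with V5 (55.8%) was 51.7% with 50% of the peak required, 51.8% after merging and 72.5% at a log2 of 4, and overlap with the empty vector list (27.9%) was 26.3% after merging and 55.7% at a log2 of 4. The motif density (7.94 per kb) was 4.19 with a stem probability over 0.6, against 2.14 in the weighted rest. The other 19 alternatives stayed within the counting interval, or within 1.5 times the count. No paired analysis was possible because the lists hold 1 value per peak over both replicates, which also means that no replicate could be left out. Depth cannot be judged from these lists.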
